A study of Homo sapiens with 6 samples.

Results

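The genes described here handle zinc in the cell: 10 metallothioneins, the transcription factor MTF1, 10 transporters of the SLC30A family and 14 of the SLC39A family. They were chosen by gene symbol and not by a cutoff on their values, but with earlier results of these data known. All 35 were matched by Ensembl identifier to a row among the 40295 rows of the deposited table. Libraries came from HDQ-P1, an established human breast cancer line with epithelial features. Exposure to Y-320 lasted 48 h at 1 µM (3 libraries) and was compared with no treatment (3 libraries). All libraries share this cell line and its culture medium, and no source used here says that the untreated cells were given a solvent. Y-320 is a small molecule that the study uses to enhance readthrough of premature termination codons, and the RNA sequencing (RNA-seq) asked how the compound alone changes the transcriptome.

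Zinc is needed by many enzymes and transcription factors, but the free metal is kept very low in the cytosol. Metallothioneins are small cysteine-rich proteins that bind zinc and copper. MTF1 senses zinc, enters the nucleus and switches on metallothionein genes and the exporter gene SLC30A1 through metal response elements (MREs) in their promoters. SLC30A proteins (ZnT) move zinc out of the cytosol, across the plasma membrane or into organelles, while SLC39A proteins (ZIP) move it into the cytosol from outside the cell or from organelles.

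Each library held 21045401 to 22740535 estimated counts, so that a gene without a count could be present at up to 3 counts, or 0.132 to 0.143 CPM (counts divided by the library total, before TMM scaling), a limit that covers counting error only. Nothing in the labels says that replicates came from separate cultures, so p-values measure the spread between these libraries, which may be technical. Treated and untreated libraries lay apart on the first principal component (58.3% of the variance). All 7 epithelial markers examined were present, with a summed level of 8108 to 8478 normalized CPM in the untreated libraries and 4859 to 4926 with Y-320. Members of this list, named after their values were seen, moved both ways: KRT8 had a log2 ratio of -1.02 and KRT5 of -2.44, while EPCAM had 0.38 (edgeR adjusted p = 2.44e-10, 2.00e-10 and 1.04e-06). The 4 fibroblast markers summed to 235 to 257 normalized CPM untreated and 122 to 137 with Y-320. The 4 leukocyte markers summed to 36.2 to 38.2 and 66.5 to 73.1, nearly all of it CD68, with CD3E at 1 or 2 counts in every library. The 3 endothelial markers summed to 17.5 to 18.9 and 13.8 to 17.95, a sum in which PECAM1 rose (log2 ratio 1.22, edgeR adjusted p = 1.10e-04) and CDH5 fell (-1.29, edgeR adjusted p = 5.91e-07). The part of these markers in the results below was not tested.

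Of the 35 genes, 25 passed the filter on low counts and were tested among 16580 genes by edgeR's quasi-likelihood test, in which the log2 ratio is that of Y-320 to untreated (its fold change) and p-values are adjusted by the Benjamini-Hochberg method. With Y-320, 11 rose and 6 fell at an adjusted p under 0.05, while 8 did not pass. Among all genes tested, 26.2% rose and 25.4% fell, together 51.5%, beside 68.0% of the 25 genes (17). Past the threshold and with an absolute log2 ratio of 0.5 or more were 5 of the 25 genes, 3 higher and 2 lower, against 15.7% of all genes tested (8.44% higher and 7.28% lower). The treated and untreated libraries did not overlap for 18 of the 25, 12 with Y-320 above and 6 below, against 59.2% of all genes tested (29.8% above and 29.4% below). The median log2 ratio of the 25 genes was 0.12 and the median of its absolute value was 0.24, against 0.00 and 0.21 over all genes tested. In bulk RNA, fewer cells of a type and less RNA per cell cannot be told apart.

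**Figure D1:**
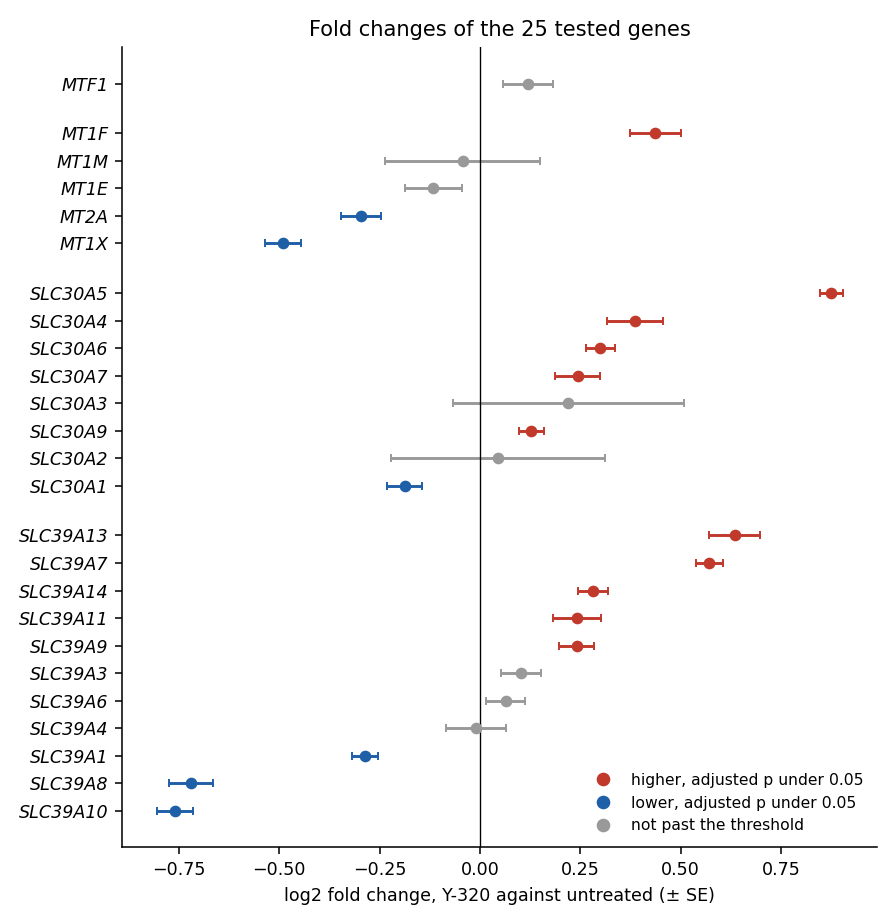
Log2 fold change (Y-320 against untreated) on the horizontal axis, with bars of 1 standard error, for the 25 genes tested, grouped into MTF1, metallothioneins, SLC30A and SLC39A transporters. Red points rose, blue points fell and grey points did not pass an adjusted p of 0.05; the values run from -0.76 for SLC39A10 to 0.87 for SLC30A5.

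The metallothionein genes lie side by side on chromosome 16, within 95.1 kb (chr16:56589074-56684196 in GENCODE 44 on hg38). From the first base of this stretch the order is MT3, MT2A, MT1E, MT1M, MT1A, MT1B, MT1F, MT1G, MT1H and MT1X, and MT1G alone lies on the minus strand. Upstream sequences from RefSeq on GRCh38.p14 were at hand for 4 of the 10, namely MT1B, MT1H, MT1X and MT2A. Those of MT2A and MT1X are shown because these genes carry most of the metallothionein reads and both fell with Y-320. They are the 250 bases before the gene start, 5′ to 3′ on the plus strand, at chr16:56608334-56608583 for MT2A and at chr16:56682220-56682469 for MT1X. Capitals mark the core of the MRE, TGCACNC or TGCGCNC on either strand.
MT2A: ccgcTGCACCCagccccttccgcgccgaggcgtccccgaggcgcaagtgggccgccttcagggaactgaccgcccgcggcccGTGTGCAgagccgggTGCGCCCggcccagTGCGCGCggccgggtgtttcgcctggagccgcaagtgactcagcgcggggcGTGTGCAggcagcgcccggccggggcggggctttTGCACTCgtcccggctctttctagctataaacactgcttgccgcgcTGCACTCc
MT1X: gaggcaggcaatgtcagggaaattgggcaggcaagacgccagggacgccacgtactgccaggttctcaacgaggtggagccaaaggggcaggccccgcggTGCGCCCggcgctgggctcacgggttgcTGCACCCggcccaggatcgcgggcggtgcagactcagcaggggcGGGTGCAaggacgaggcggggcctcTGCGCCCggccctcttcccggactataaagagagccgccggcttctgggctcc
MT2A held 7 matches and MT1X held 4, none of them overlapping another in these windows. Of 35116 RefSeq promoters of the same length, 24.8% held at least 1 match and 0.370% held at least 4. MT1H, which was nearly silent in these cells, held 8 matches, and MT1B, also nearly silent, held 3. A match is a description of the letters, and these libraries hold no measurement of MTF1 binding.

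**Figure D2:**
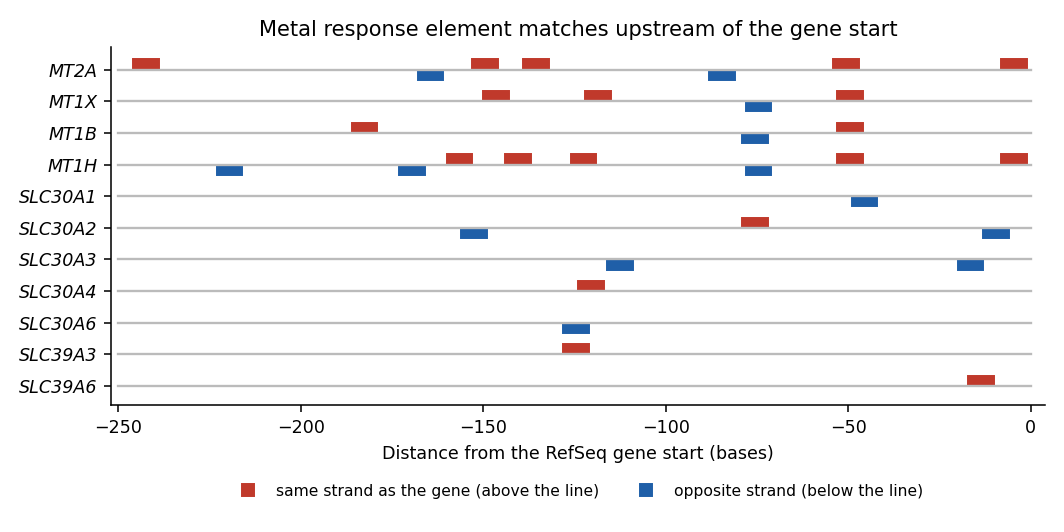
Positions of MRE core matches in the 250 bases before the RefSeq gene start, with the distance from the start in bases on the horizontal axis, for the 11 genes with at least 1 match. Red boxes above the line are on the strand of the gene and blue boxes below it on the opposite strand; MT1H with 8 and MT2A with 7 hold the most.

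Among the metallothioneins, the abundant MT2A and MT1X fell, the less abundant MT1F rose, and MT1E and MT1M did not pass the test. The other 5 (MT1A, MT1B, MT1G, MT1H and MT3) were at or near 0 in both groups. Thus 1 of the 5 genes tested was higher and 2 were lower, 60% called beside 51.5% of all genes tested. The median log2 ratio of the 5 was -0.12.

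MT2A (ENSG00000125148, chr16:56608584-56609497, plus strand) is the major form in most human cells. It had 10475, 11404 and 12226 estimated counts in replicates 1, 2 and 3 of the untreated cells, against 9611, 9373 and 9597 in the treated ones. All treated libraries lay below all untreated ones, and untreated replicate 1 was the lowest of its group. Its normalized CPM (scaled by TMM) was 525 ± 43.9 without treatment and 428 ± 6.33 under Y-320 (mean ± SD of 3 libraries), with a log2 ratio of -0.30 (standard error 0.050, edgeR adjusted p = 5.84e-04).

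MT1X (ENSG00000187193, chr16:56682470-56684196, plus strand), another widely expressed form, fell further. The counts were 2546, 2497 and 2854 without treatment, against 1908, 1958 and 1916 under Y-320, again without overlap. Its normalized CPM was 121 ± 7.14 without and 86.5 ± 3.04 with treatment (mean ± SD of 3 libraries), a log2 ratio of -0.49 (standard error 0.045, edgeR adjusted p = 7.34e-06).

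MT1F (ENSG00000198417, chr16:56657731-56660698, plus strand) moved the other way. It had 442, 503 and 499 counts without treatment, against 699, 659 and 654 under Y-320, and every treated library was above every untreated one. Its normalized CPM went from 22.2 ± 2.08 to 30.1 ± 0.539 (mean ± SD of 3 libraries), a log2 ratio of 0.44 (standard error 0.063, edgeR adjusted p = 1.97e-04). MT1F made up 3.12% ± 0.133 of the summed metallothionein CPM without and 5.14% ± 0.183 with treatment (mean ± SD of 3 libraries; exact permutation test, two-sided, p = 0.1, and 3 libraries against 3 allow no smaller p). Over the same libraries the share of MT1X went from 17.1% ± 0.779 to 14.8% ± 0.375 (mean ± SD of 3 libraries; two-sided exact permutation test, p = 0.1), while that of MT2A was 73.6% ± 0.526 and 73.1% ± 0.276 (mean ± SD of 3 libraries; two-sided exact permutation test, p = 0.2).

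MT1E (ENSG00000169715, chr16:56625475-56627112, plus strand) had 835, 938 and 951 counts without treatment, against 832, 820 and 933 under Y-320, and the groups overlapped. Its log2 ratio was -0.12 (standard error 0.071, edgeR adjusted p = 0.199). The call depended on 1 library, since without untreated replicate 1 the value was -0.19 with an edgeR adjusted p of 0.0356.

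MT1M (ENSG00000205364, chr16:56632659-56633981, plus strand) was far weaker, with 40.3, 55.3 and 43.3 counts without treatment, against 45.1, 49.1 and 44.2 under Y-320. Its log2 ratio of -0.04 (standard error 0.19, edgeR adjusted p = 0.872) became 0.13 without untreated replicate 2. MT1B had 4, 1.02 and 2 counts without treatment, against 0, 1 and 5 under Y-320. MT3, the form known from brain, had 1, 1 and 2 counts without treatment, against 1, 4.01 and 3.01 under Y-320. MT1A had 0 counts in all libraries, while MT1G and MT1H had at most 1.03 and 1.00 counts in any library, so that a difference in these genes was not detectable at this depth.

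**Figure D3:**
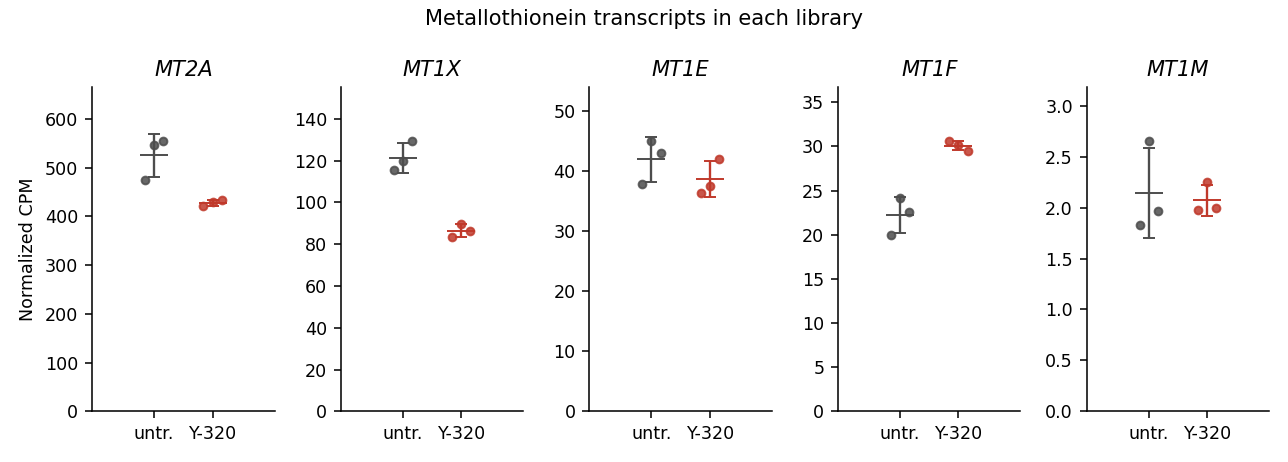
Normalized CPM (vertical axes, each from 0) of the 5 tested metallothionein genes in each library. Points are libraries, horizontal marks the mean and bars the SD (n = 3 per group); the treated points of MT2A and MT1X lie below, and those of MT1F above, all untreated points.

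The metallothionein copies resemble each other, and reads that match several copies are divided among them by kallisto. In the GENCODE 44 transcripts, the share of 31-base words found in another gene was 12.7% for MT2A, 20.3% for MT1X, 15.6% for MT1E, 3.31% for MT1F and 45.0% for MT1M. The partners of MT2A, MT1E, MT1F and MT1M with the most shared words were other metallothionein genes or pseudogenes. MT1X shared the most with ENSG00000259827, a gene that has no row in the deposited table. Levels of MT1M are the most uncertain of the 5 in this respect. Summed over the 10 genes, so that the division among them does not matter, normalized CPM was 650, 738 and 751 for the untreated replicates in order and 573, 589 and 594 for the treated. The sum went from 713 ± 55.2 to 585 ± 10.6 (mean ± SD of 3 libraries), a difference of -128 with no overlap between the groups (exact permutation test, two-sided, p = 0.1, the lowest possible). The 11 other metallothionein copies in the table, mostly pseudogenes, held only 1.02 ± 0.464 and 0.696 ± 0.186 normalized CPM together (mean ± SD of 3 libraries). With all 21 rows added into 1 row before the fit, the log2 ratio was -0.29 (standard error 0.047, edgeR adjusted p = 4.80e-04).

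MTF1 (ENSG00000188786, chr1:37809574-37859592, minus strand), the zinc sensor, had 450, 451 and 487 estimated counts without treatment, against 541, 466 and 544 under Y-320. Y-320 replicate 2 lay among the untreated libraries. Its normalized CPM was 21.4 ± 0.859 and 23.2 ± 1.67 (mean ± SD of 3 libraries), a log2 ratio of 0.12 (standard error 0.062, edgeR adjusted p = 0.136). Without Y-320 replicate 2 the value was 0.18 with an edgeR adjusted p of 0.0342, so that this library decided the call. Of 4 further genes known to respond to MTF1, 2 fell and 2 did not pass, and this share called (50.0%) is close to the 51.5% of all genes tested. PGF, which encodes placental growth factor, had 47.3, 36.1 and 54.5 counts without treatment, against 18.14, 13.03 and 14.02 under Y-320, a log2 ratio of -1.65 (standard error 0.24, edgeR adjusted p = 2.28e-04). SELENOH, a selenoprotein gene named after its value was seen, fell by 0.40 on the log2 scale (edgeR adjusted p = 7.69e-06). GCLC, an enzyme of glutathione synthesis, and HAMP, the iron hormone hepcidin, had log2 ratios of 0.03 and -0.45 (edgeR adjusted p = 0.613 and 0.255).

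Among the SLC30A genes SLC30A5 rose most, while SLC30A1 fell. Of the 8 tested, 5 rose (SLC30A5, SLC30A4, SLC30A6, SLC30A7 and SLC30A9), 1 fell and 2 did not pass, where 26.2% of all genes tested rose and 25.4% fell. Only SLC30A5 passed with an absolute log2 ratio of at least 0.5. The median log2 ratio of the 8 was 0.23.

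SLC30A1 (ENSG00000170385, chr1:211571568-211579161, minus strand) is the exporter of the plasma membrane and a known MTF1 target, with 1 MRE core match before its start. SLC30A4 and SLC30A6, which rose, also held 1 match each. SLC30A5, SLC30A7, SLC30A9, SLC39A7, SLC39A9, SLC39A11 and SLC39A13, which rose, held 0, as did SLC39A1, SLC39A8 and SLC39A10, which fell. Among the tested transporters, the RefSeq windows of SLC30A3, SLC39A7, SLC39A8, SLC39A9 and SLC39A10 lie wholly inside the GENCODE gene. The windows of SLC30A5, SLC30A6, SLC30A7, SLC30A9, SLC39A6, SLC39A11 and SLC39A13 run partly into it. Their match counts therefore include bases inside the GENCODE gene. At least 1 match was found in 7 of 21 transporter promoters, beside 24.8% of all RefSeq promoters. A link of matches to these changes was not tested. SLC30A1 had 980, 879 and 993 counts without treatment, against 849, 880 and 845 under Y-320. After scaling, all treated libraries were below all untreated ones, at 38.5 ± 1.60 against 43.8 ± 1.497 normalized CPM (mean ± SD of 3 libraries). The log2 ratio was small, -0.19 (standard error 0.044, edgeR adjusted p = 0.00460).

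SLC30A5 (ENSG00000145740, chr5:69093991-69131069, plus strand) moves zinc into the early secretory pathway, where it pairs with SLC30A6. It had 1521, 1414 and 1484 counts without treatment, against 2877, 2674 and 2785 under Y-320, and each treated library was far above each untreated one. Normalized CPM was 68.0 ± 0.841 without and 125 ± 1.97 with treatment (mean ± SD of 3 libraries). Its log2 ratio of 0.87 (standard error 0.029, edgeR adjusted p = 4.83e-09) was the largest of the 25 genes tested, and 7.02% of all genes tested had a log2 ratio at least as large in either direction. Of its 31-base words, 13.0% are also found in other genes. The 250 bases before its RefSeq start (chr5:69093764-69094013, plus strand, GRCh38.p14) held no MRE core match. They held the letters TGACGTGG, the core of the unfolded protein response element, from -17 to -10, shown in capitals because SLC30A5 changed most. This window runs past the GENCODE start at 69093991. The letters lie before the RefSeq start but inside the GENCODE gene.
SLC30A5: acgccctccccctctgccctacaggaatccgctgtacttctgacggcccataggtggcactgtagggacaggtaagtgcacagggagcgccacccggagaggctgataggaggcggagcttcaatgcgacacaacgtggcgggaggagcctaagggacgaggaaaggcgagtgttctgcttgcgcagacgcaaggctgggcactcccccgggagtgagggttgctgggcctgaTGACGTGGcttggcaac
That element occurs, on either strand, in 0.612% of the 35116 RefSeq promoters and in 1 of the 26 at hand for the genes described here. The ER stress element (ERSE) and the letters TGATGNAA (CARE, read by ATF4) occurred in 0 of these 26 promoters, and in 0.0740% and 3.14% of all promoters.

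The partner gene SLC30A6 rose less, from 54.0 ± 1.74 to 66.5 ± 1.13 normalized CPM (mean ± SD of 3 libraries), a log2 ratio of 0.30 (standard error 0.035, edgeR adjusted p = 4.57e-05). SLC30A7, which also loads the Golgi with zinc, had a log2 ratio of 0.24 (edgeR adjusted p = 0.00387). SLC30A4, found on endosomes and vesicles, had 0.39 (edgeR adjusted p = 8.85e-04), and SLC30A9, linked to mitochondrial zinc, had 0.13 (edgeR adjusted p = 0.00552). In all of these the treated libraries lay above the untreated ones. SLC30A2, known from secretory vesicles of the breast, and SLC30A3, known from synaptic vesicles, were at about 1 CPM or less. SLC30A2 had 17.0 to 29.4 counts per library and a log2 ratio of 0.04 (edgeR adjusted p = 0.906), which turned to -0.06 without untreated replicate 2 and to -0.12 without Y-320 replicate 1. SLC30A3 had 13.01 to 23.06 counts and 0.22 (edgeR adjusted p = 0.558). SLC30A8, the transporter of insulin granules, and SLC30A10, a manganese exporter, did not reach the filter, with at most 4.42 and 4 counts in any library. Summed over the 10 genes, SLC30A reads went from 284 ± 3.48 to 364 ± 1.12 normalized CPM (mean ± SD of 3 libraries; exact permutation test, two-sided, p = 0.1, the lowest possible). Within this sum SLC30A5 changed most, from a mean of 68.0 to 125 normalized CPM.

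The SLC39A genes moved in both directions: 5 of the 11 tested rose, 3 fell and 3 did not pass. Of all genes tested, 26.2% rose and 25.4% fell. The median log2 ratio of the 11 was 0.10. SLC39A10, SLC39A8 and SLC39A1 fell, while SLC39A13, SLC39A7, SLC39A14, SLC39A11 and SLC39A9 rose. Their summed level was 580.1 ± 13.4 normalized CPM without and 583 ± 9.06 with treatment (mean ± SD of 3 libraries; two-sided exact permutation test, p = 0.7).

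SLC39A10 (ENSG00000196950, chr2:195575977-195737702, plus strand), a plasma membrane importer, had 1106, 1001 and 1006 counts without treatment, against 650, 632 and 609 under Y-320. The groups were far apart, at 47.9 ± 2.26 and 28.3 ± 0.735 normalized CPM (mean ± SD of 3 libraries). Its log2 ratio was -0.76 (standard error 0.046, edgeR adjusted p = 3.31e-07), the lowest of the 25 genes.

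SLC39A8 (ENSG00000138821, chr4:102251080-102431258, minus strand) carries zinc, manganese and cadmium. It had 1151, 1031 and 1052 counts without treatment, against 730, 669 and 620 under Y-320, without overlap. Normalized CPM was 49.7 ± 2.26 and 30.2 ± 2.03 (mean ± SD of 3 libraries), a log2 ratio of -0.72 (standard error 0.054, edgeR adjusted p = 1.69e-06).

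SLC39A1 (ENSG00000143570, chr1:153959099-153968184, minus strand), a widely expressed plasma membrane importer, was the most abundant SLC39A gene per length. It had 3221, 3115 and 3100 counts without treatment, against 2652, 2646 and 2660 under Y-320. All treated libraries lay below the untreated ones, with 145 ± 4.50 and 119 ± 2.66 normalized CPM (mean ± SD of 3 libraries) and a log2 ratio of -0.29 (standard error 0.032, edgeR adjusted p = 2.89e-05). In the annotation 57.5% of its 31-base words also occur in ENSG00000285779, whose row in the table is at 0 in every library, so the reads that both could claim stand in the row of SLC39A1.

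SLC39A13 (ENSG00000165915, chr11:47407132-47416496, plus strand) releases zinc from the Golgi and vesicles and is known from an inherited connective tissue disorder. It had 426, 399 and 413 counts without treatment, against 633, 708 and 634 under Y-320, and Y-320 replicate 2 was the highest. Normalized CPM was 19.0 ± 0.302 and 29.6 ± 2.49 (mean ± SD of 3 libraries), a log2 ratio of 0.63 (standard error 0.063, edgeR adjusted p = 1.44e-05). It shares no 31-base word with any other annotated gene.

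SLC39A7 (ENSG00000112473, chr6:33200305-33204439, plus strand) releases zinc from the endoplasmic reticulum. It had 780.0, 721 and 764 counts without treatment, against 1192, 1119 and 1149.7 under Y-320, and the libraries of each group lay close together. Normalized CPM was 34.8 ± 0.419 and 51.7 ± 0.493 (mean ± SD of 3 libraries), a log2 ratio of 0.57 (standard error 0.034, edgeR adjusted p = 3.15e-07). The neighbouring gene RXRB shares 7.78% of its words, and whether the libraries kept strand is not given in the sources used here.

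**Figure D4:**
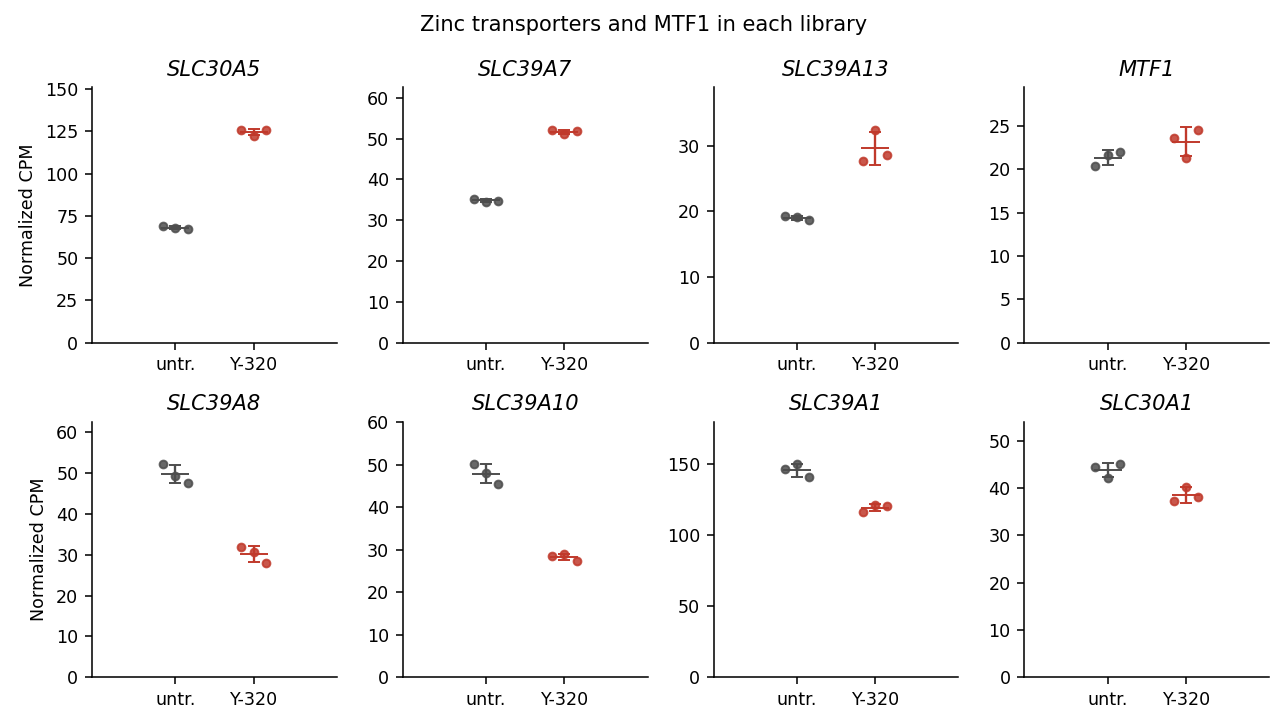
Normalized CPM (vertical axes, each from 0) in each library for 7 zinc transporters and MTF1. Points are libraries, horizontal marks the mean and bars the SD (n = 3 per group); SLC30A5, SLC39A7 and SLC39A13 lie higher and SLC39A8, SLC39A10, SLC39A1 and SLC30A1 lower with Y-320 without overlap, while the groups of MTF1 overlap.

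SLC39A14, which takes up zinc, iron and manganese, rose from 85.6 ± 2.94 to 104 ± 4.01 normalized CPM (mean ± SD of 3 libraries), a log2 ratio of 0.28 (edgeR adjusted p = 1.15e-04). SLC39A9, a Golgi protein, and SLC39A11 had log2 ratios of 0.24 each (edgeR adjusted p = 9.39e-04 and 0.00582). The row of SLC39A11 holds the same values as that of ENSG00000285189 in all 6 libraries, so its reads cannot be assigned to one of them. SLC39A3 had a log2 ratio of 0.10 (edgeR adjusted p = 0.114), although its treated libraries all lay above the untreated ones. SLC39A6, known in breast cancer as the estrogen-regulated LIV-1, had 0.06 (edgeR adjusted p = 0.298). SLC39A4, the importer of the gut that is mutated in acrodermatitis enteropathica, had -0.01 (standard error 0.075, edgeR adjusted p = 0.926). The log2 fold change of SLC39A4 turned to 0.0029 under library size scaling, to 0.0724 without untreated replicate 1, to 0.0223 without Y-320 replicate 1 and to 0.0065 without Y-320 replicate 2. SLC39A5 had 3 to 6 counts per library, and SLC39A2 and SLC39A12 had at most 2 and 1, so that these 3 were not tested.

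Levels of different genes were compared per length, as normalized CPM per kilobase of exon (exon union of GENCODE 44). On this scale MT2A stood first in untreated cells at 574.5 ± 48.1, followed by MT1X at 70.3 ± 4.13, SLC39A1 at 42.9 ± 1.33 and MT1E at 39.9 ± 3.54 (mean ± SD of 3 libraries). SLC39A1 and MT1E did not differ beyond their spread. The next were SLC30A5 at 12.5 ± 0.155, SLC39A14 at 12.4 ± 0.425, MT1F at 12.01 ± 1.12 and SLC39A9 at 11.4 ± 0.622, whose ranges of 1 SD meet those of their neighbours. MTF1 stood at 2.67 ± 0.108, rank 22 of the 35 genes. With Y-320 the first 5 genes were the same, except that MT1E at 36.8 ± 2.87 came before SLC39A1 at 35.1 ± 0.784, and SLC30A5 had a level of 22.9 ± 0.362. Division by the longest transcript in place of the exon union moved 18 of the 35 ranks and left MT2A and MT1X first and second. Fragments of a short transcript have few possible start points, and dividing by its full length therefore understates genes such as the metallothioneins.

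**Figure D5:**
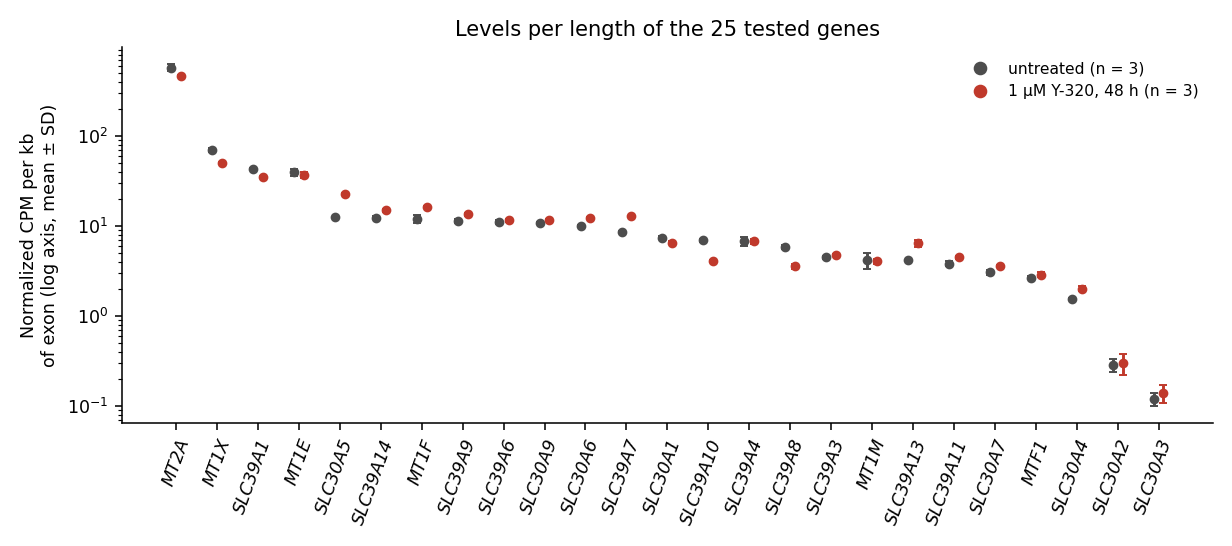
Level per length (normalized CPM per kilobase of exon, logarithmic axis, mean ± SD, n = 3 per group) of the 25 tested genes in order of their untreated level. Grey points are untreated and red points Y-320; MT2A stands at 574.5 untreated, and SLC30A2 and SLC30A3 stand below 1.

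Other metal-handling genes, for copper, iron, magnesium and also zinc (such as TMEM163, ZNG1A and ZNG1B), gave a background for these changes. Of 22 such genes, all tested, 6 rose and 6 fell (54.5% called, near the 51.5% of all genes tested), and their median log2 ratio was 0.00. Past the threshold with an absolute value of at least 0.5 were 3 of the 22, against 15.7% of all genes tested. These 3 are named after their values were seen. SLC31A1, the copper importer, had 894, 850.5 and 863 counts without treatment, against 1760.4, 1610.0 and 1649 under Y-320, a log2 ratio of 0.90 (standard error 0.035, edgeR adjusted p = 1.52e-08). SLC41A2, a magnesium transporter, had 0.77 (standard error 0.056, edgeR adjusted p = 1.34e-06). SLC40A1, the iron exporter ferroportin, had -0.92 (standard error 0.21, edgeR adjusted p = 0.00407) on 19 to 46 counts per library.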

How the data were processed

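RNA from HDQ-P1 cells was extracted, made into libraries with the Illumina NeoPrep system and sequenced on an Illumina NextSeq instrument, 3 libraries untreated and 3 treated with Y-320. The values deposited by the authors are estimated counts, 1 column a library, not normalized; the submitters' processing notes name kallisto 0.46.1 and GRCh38, and the Ensembl release is not given in the sources used here. kallisto divides reads that match several transcripts, and 48.5% of the values were not whole. Of 40295 identifiers, 35390 were matched to a symbol. The study's own combination of pipelines could not be repeated from these counts.

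Counts were rounded, filtered with filterByExpr (minimum 10, total 15) and scaled by TMM, and edgeR 4.0.16 in R 4.3.3 fitted its quasi-likelihood model to all genes, with no replicate block; p-values were adjusted by Benjamini-Hochberg and called under 0.05. The standard error is the absolute log2 fold change divided by the square root of F. The fit was tested on simulated data. DESeq2 1.42.0 and limma 3.58.1 (voom) were alternatives, besides other filters and scalings, a replicate block, unrounded counts, stricter thresholds, summed metallothionein rows and leaving out each library. Exact permutation tests used scipy 1.17.1, and plots matplotlib 3.10.9. Positions, lengths and shared 31-base words came from GENCODE 44 on hg38, and sequences upstream of genes from RefSeq (GRCh38.p14), which matched 26 of the 35 genes.

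The members, lists, motifs and tests were chosen with earlier results of these data known. All 35 genes are named; library values are given for metallothioneins above 3 counts in any library, MTF1, SLC30A1, the most abundant transporter of each family per length and transporters past the threshold with an absolute log2 fold change of at least 0.5. From the lists of other metal-handling genes and MTF1 targets, genes past the threshold with an absolute log2 ratio of at least 1 are named. SELENOH, SLC31A1, SLC41A2 and SLC40A1 were named after their values were seen. GCLC and HAMP are the remaining MTF1 targets. TMEM163, ZNG1A and ZNG1B are named as zinc genes of their list. Genes of these lists whose sign or call depended on the processing are named with those settings. Marker genes are given mainly as summed levels, and a marker not named is not reported on its own here.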

Additional observations from a re-analysis of the deposited data

How the results depend on the processing

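The counts of genes higher and lower among the 35 genes, the metallothioneins, SLC30A, SLC39A, the other metal-handling genes and the MTF1 targets stayed within 1.5 times the reported counts under each filter, each scaling, DESeq2, limma-voom, unrounded counts and an adjusted p under 0.01. With a log2 fold change of at least 0.5 also required, 3 of the 35 genes were higher and 2 lower, 0 metallothioneins were higher and 0 lower, 1 SLC30A gene was higher and 0 lower, 2 SLC39A genes were higher, 2 other metal-handling genes were higher and 1 lower, and 1 MTF1 target passed. With the metallothionein rows summed into 1, 0 metallothionein rows were higher and 1 was lower, since a single row then stands for all of them. The summed metallothioneins (normalized CPM) differed by -30.4 without MT2A, the most abundant, and by -159.5 to -108.9 with each library left out. Leaving out each library gave 11 to 12 genes higher and 6 to 7 lower among the 35.

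Of 395 comparisons of a member's fold change with an alternative, 386 kept the direction and side of the threshold, 2 became significant (MTF1 and MT1E, above) and 7 turned sign, all of genes not past the threshold: the log2 fold change of MT1M without untreated replicate 2, the log2 fold change of SLC30A2 without untreated replicate 2 (-0.0562) or Y-320 replicate 1, and the log2 fold change of SLC39A4 under library size scaling (0.0029) and without untreated replicate 1, Y-320 replicate 1 (0.0223) or Y-320 replicate 2 (0.0065). With each library left out in turn these ran from -0.1495 to 0.1347, from -0.1197 to 0.2251 and from -0.0908 to 0.0724. Outside the members, the log2 fold change of ZNG1B turned without Y-320 replicate 1 (0.0033; range -0.09 to 0.0033) and the log2 fold change of GCLC without untreated replicate 2 (-0.0029; range -0.0029 to 0.0664). Among the other metal-handling genes, the call of HMOX1 (lower) held in 10 and that of SLC31A2 (higher) in 11 of 16 settings, while ATP7B and TMEM163, not called as reported, passed the threshold in 5 and 6. COMMD1, also not called as reported, passed under upper-quartile scaling, without untreated replicate 1 and without Y-320 replicate 3. FTH1 passed without untreated replicate 1 only. The cause was not tested.

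Same-numbered libraries did not deviate together (correlations of -0.0024, 0.015 and 0.0022 over genes), so no pairing by number was seen. A small shared effect, or an effect in few genes, could go unseen this way. With the replicate block, 11 of the 35 genes were higher and 6 lower, as without it, 8 in place of 6 other metal-handling genes were higher, and 8444 in place of 8546 genes passed in all. Weak genes such as MT1B, MT3 and SLC39A5 rest on a few counts, and depth limits what can be said of them.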
